A study of Homo sapiens with 11 samples.

Results

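The genes described are serum response factor (SRF) and 9 genes of the actin cytoskeleton that it is known to switch on: ACTB, ACTA2, TAGLN, MYL9, CNN1, VCL, FLNA, TPM1 and TPM4. They were taken by symbol from the authors' expression table, and all 10 stood among its 20500 entries. The RNA came from 786-0, a human renal cell carcinoma line that lacks functional VHL, grown in DMEM. The control group received the vehicle DMSO (6 samples), and the everolimus group received everolimus in DMSO (5 samples), at a dose the labels write as "10um" and read here as 10 µM. Both groups were kept in it for 4 h. All libraries thus come from 1 line at 1 dose and 1 time. Whether a group's samples were grown as separate cultures is not in the labels, and the replicate error behind each p-value may therefore be technical in part or in whole.

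SRF is a transcription factor that binds a short A/T-rich DNA element, the CArG box, in the control regions of actin and contractile genes and of its own gene. Its cofactors of the MRTF family are held by monomeric actin and are freed when actin polymerizes, so the pool of free actin is linked to the supply of actin transcripts. Cofactors of the ternary complex family link SRF to ERK signalling instead. Everolimus is a rapamycin derivative that inhibits mTOR in its complex 1.

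CArG boxes are printed here because they are the element that ties this family to SRF. RefSeq promoter windows (GRCh38.p14) run from 250 bases before to 50 bases after an annotated start and were given for 7 of the 10 genes, with 11 windows in all, since some genes have several starts. The box, 10 bases with a run of A or T between CC and GG and the same pattern on either strand, stood in 1 window each of SRF, FLNA and TPM4. Of all 35116 windows, 454 (1.29%) held one. Capitals mark the boxes, the letters run 5′ to 3′ on the gene's strand, and the second SRF box ends at the base before the annotated start.
SRF: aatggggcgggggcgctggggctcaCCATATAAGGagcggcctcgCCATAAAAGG
FLNA: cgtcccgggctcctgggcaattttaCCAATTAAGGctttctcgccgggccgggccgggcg
TPM4: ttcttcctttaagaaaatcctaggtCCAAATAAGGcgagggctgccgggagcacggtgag
ACTG1: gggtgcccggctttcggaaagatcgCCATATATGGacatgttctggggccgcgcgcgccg
The SRF stretch lies at chr6:43171214-43171268 (plus strand), with boxes 30 to 21 and 10 to 1 bases before the start. FLNA lies at chrX:154374694-154374753 (minus strand, box 94 to 85 bases before), TPM4 at chr19:16067340-16067399 (plus strand, 173 to 164 before) and ACTG1, a relative of ACTB shown beside them, at chr17:81512859-81512918 (minus strand, 94 to 85 before). The windows of VCL, TPM1, CNN1 and ACTA2 did not hold this exact pattern. Boxes that depart from it by a base, and boxes outside the windows, were not searched for. ACTB, TAGLN and MYL9 had no window to search. A match describes the sequence and does not show that SRF was bound in these cells.

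Levels are given in units, which are estimated read counts that the authors scaled so that the upper quartile of the genes above 0 was about 1000 in every library. A library held 14230644 to 36828259 estimated reads in the controls and 29760873 to 52522810 with everolimus, and 1 read was worth 0.307 to 1.05 units. Units are not divided by transcript length, so levels are compared between groups and not between genes. The labels name no batch, but the share of low values that were whole read numbers divided the libraries. One set, called the first below, held controls 1 to 3 with everolimus 1 and 2, while the other, called the second, held the remaining 3 controls and 3 everolimus libraries. Of the renal markers, control libraries had PAX8 at 3189 ± 78.7 units (SD, n = 6) and VIM at 73309 ± 4493, whereas CA9, a HIF target common in this tumour type, was at 1.41 ± 1.24. Of 5 tested renal markers 4 rose and 1, CDH6, fell (log2 fold change -0.92), where 27.8% of all tested genes rose and 27.4% fell. Within the second set, under quantile normalization and with libraries scaled to total reads 2 rose, and VIM turned from 0.16 to -0.21 (limma adjusted p = 0.0128) under quantile normalization. MET, among the 4 that rose, passed narrowly (0.11, limma adjusted p = 0.0396). Its call was also lost within the first set (adjusted p = 0.250) and after thinning all libraries to the reads of the shallowest (0.176). Further losses came with median log ratio centring (0.0590), without a filter on low values (0.0609) and with same-numbered replicates as blocks (0.139). The same held without any 1 of controls 1, 3, 4 and 6 or everolimus 1, 3 and 4 (adjusted p = 0.0670 to 0.103).

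After 4 h with everolimus, SRF and 7 of the 8 tested genes of its actin programme were higher, by 1.23-fold to 1.96-fold. VCL rose most and MYL9 least, and ACTA2 was the tested gene that did not pass. Of the 10 genes, 9 reached the filter on low values (at least 10 units in at least 5 libraries), and CNN1 did not. Of these 9, 8 rose and 0 fell at an adjusted p under 0.05 in limma, a linear model fitted over all 12668 tested genes. The background was high, since 27.8% of all tested genes rose and 27.4% fell, 55.2% in either direction. These were 3528 genes higher and 3469 lower, and with libraries scaled to their total reads 2637 were higher and 4886 lower, with 8 of the 9 genes still among the former. The median log2 fold change was 0.59 over the 9 genes and -0.0081 over all tested genes. Everolimus libraries lay wholly above the controls for the same 8 genes and for CNN1, as they did for 20.3% of all tested genes, and wholly below them for 0 of the 10 genes, against 17.6% of all tested. Bulk RNA cannot tell a change in all cells from a change in the share of cells with high levels.

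**Figure D1:**
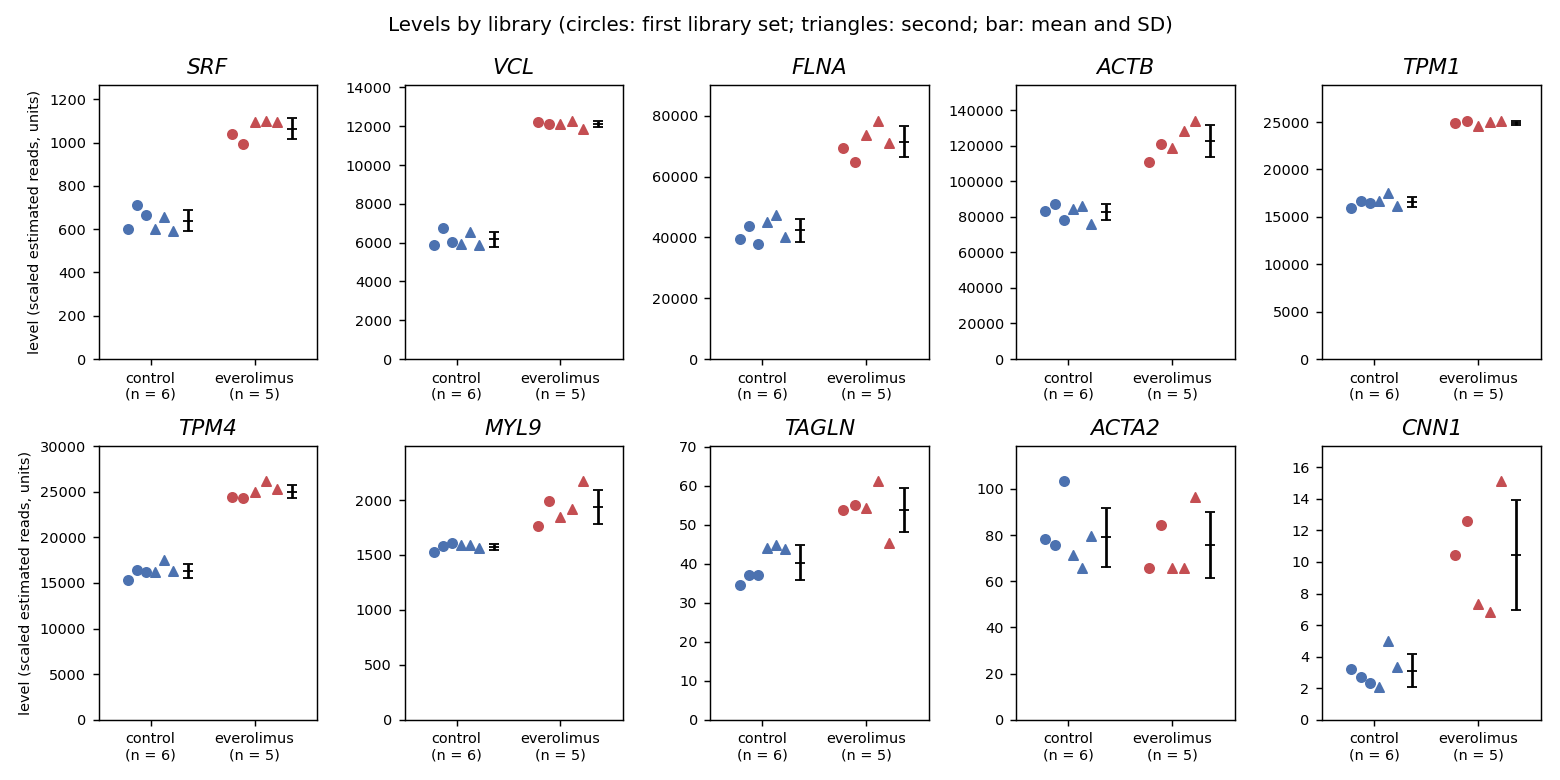
Level of each of the 10 genes in every library (vertical axis, scaled estimated reads, from 0; blue control, red everolimus; circles for the first library set, triangles for the second; bars for mean and SD). Everolimus libraries lie above every control in all panels but that of ACTA2, and TAGLN comes closest, with 45.3 units in the lowest everolimus library against 45.0 in the highest control.

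SRF itself, whose product is the DNA-binding partner of the whole programme, ranged from 593.1 to 713.3 units in the 6 controls, with a median of 628.1. The everolimus libraries 1 to 5 held 1040.1, 992.1, 1097, 1101 and 1093 units. The 5 treated libraries were thus close together and well above every control. The mean went from 638.2 ± 48.8 (SD, n = 6) to 1065 ± 47.7 (n = 5), a log2 fold change of 0.74 (SE 0.053, limma adjusted p = 2.63e-08). The first library set gave 0.62 and the second 0.83.

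Among the SRF cofactors, the ternary complex factors were higher and the MRTF coactivators were not. ELK3, a ternary complex factor that can repress SRF targets until ERK signalling modifies it, ranged from 222.5 to 269.1 units in the controls and from 580.4 to 680.9 with everolimus (log2 1.35, SE 0.058, limma adjusted p = 1.28e-10). ELK1 rose by a log2 of 0.25 (SE 0.048) and ELK4 by 0.39 (SE 0.102), although ELK4 was called in the second set and not in the first (0.13, adjusted p = 0.357). MKL1, now MRTFA, the main actin-regulated coactivator, averaged 636.4 ± 45.2 units (SD) in control libraries and 633.7 ± 46.9 in treated ones, a log2 fold change of -0.0061 (SE 0.059, limma adjusted p = 0.939).

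MKL2, now MRTFB, its close relative, fell by 0.15 on the log2 scale (SE 0.051, limma adjusted p = 0.0194). That call was lost without everolimus 5 (-0.12, adjusted p = 0.0578) and within the second set (-0.11, adjusted p = 0.223). SCAI, an inhibitor of MRTF activity, fell by 0.30 on the log2 scale (SE 0.095, limma adjusted p = 0.0150), a call that was lost within the second set (-0.24, adjusted p = 0.156). MYOCD, the coactivator of smooth and cardiac muscle, was listed at 0 in all 11 libraries. Of the 6 cofactor genes tested, 3 rose and 2 fell, against 27.8% and 27.4% of all tested genes. The number that fell was 0 within the second set and 1 without everolimus 5.

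VCL encodes vinculin, which couples actin filaments to integrin adhesions and to cadherin junctions. Its controls ranged from 5874 to 6780.3 units with a median of 6002. With everolimus the 5 libraries held 12216, 12123, 12094, 12287 and 11840.2 units. Every treated library was far above the controls, and the treated values were the tighter ones, with an SD of 170.1 against 386. The mean rose 1.96-fold, from 6178 to 12112 units (log2 0.97, SE 0.040, limma adjusted p = 7.43e-11), with 0.97 and 0.98 in the library sets.

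FLNA, filamin A, crosslinks actin filaments into networks. It ranged from 37793 to 47202 units in the controls (median 41945), and the everolimus libraries held 69398, 64830.0, 73711, 78382 and 71073 units. The groups did not overlap, and the log2 fold change was 0.76 (SE 0.061, limma adjusted p = 1.03e-07). Under quantile normalization it was 0.49 (adjusted p = 3.91e-06). FLNC, the muscle filamin, fell by 0.27 on the log2 scale (SE 0.058, adjusted p = 0.00108).

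ACTB encodes beta-actin, the main actin of most non-muscle cells and a common reference gene in expression assays. Its controls ranged from 76101 to 87467 units with a median of 83872. The everolimus libraries held 110951, 121181, 118731, 128059.7 and 134058 units. ACTB took 0.494% to 0.578% of all estimated reads in the controls and 0.693% to 0.835% with everolimus, with no overlap. Its log2 fold change was 0.57 (SE 0.052, limma adjusted p = 4.03e-07), with 0.48 and 0.63 in the library sets.

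Quantile normalization removed the ACTB difference (0.025, SE 0.033, adjusted p = 0.544), since ACTB ranked 2 or 3 in every library and that method gives equal ranks equal values. With libraries scaled to their total reads it was 0.49 (adjusted p = 3.71e-06). ACTG1, gamma-actin, the other non-muscle actin, rose from 63563 ± 3671 to 111769 ± 1692 units (log2 0.82, SE 0.041, adjusted p = 5.81e-10). Actin genes have near-identical coding sequences and many processed copies, so how their reads were divided is uncertain.

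TPM1 and TPM4 encode tropomyosins, rod-shaped proteins that lie along actin filaments and set which partners bind. TPM1 ranged from 15887 to 17492 units in the controls (median 16531), and the everolimus libraries held 24855, 25065, 24543.5, 25009.6 and 25142 units. TPM4 ranged from 15265 to 17543 units (median 16245), with 24391, 24267, 24932, 26117 and 25294 units after everolimus. Both genes were higher in every treated library, and the treated values were narrow.

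The log2 fold change was 0.59 for TPM1 (SE 0.029, limma adjusted p = 5.59e-10) and 0.62 for TPM4 (SE 0.036, limma adjusted p = 2.97e-09). TPM3, another non-muscle tropomyosin, rose by 0.21 (SE 0.026). TPM2, a form prominent in muscle, averaged 123 ± 16.0 units in control libraries and 108 ± 5.45 in treated ones (-0.17, SE 0.087, limma adjusted p = 0.105).

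MYL9 encodes a regulatory light chain of non-muscle and smooth muscle myosin, whose phosphorylation switches on contraction. It ranged from 1527 to 1605 units in the controls with a median of 1584. The everolimus libraries held 1765, 1993, 1842, 1915 and 2169 units, all above the controls but more spread out than them. The log2 fold change was 0.29 (SE 0.045, limma adjusted p = 6.76e-05), the smallest among the 8 genes that rose. MYL12A, which encodes a near-identical light chain, rose by 0.59 (SE 0.036), and the heavy chain gene MYH9 by 0.74 (SE 0.046). MYL12B, another such light chain gene, rose by 0.13 (SE 0.042, limma adjusted p = 0.0137), less than MYL9. Its call was lost within the second set, under quantile normalization, after thinning and with libraries scaled to total reads.

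TAGLN, CNN1 and ACTA2 are best known as smooth muscle genes and were low in these cells. TAGLN (transgelin, an actin-bundling protein) ranged from 34.5 to 45.0 units in the controls with a median of 40.6, and the everolimus libraries held 53.8, 55.04, 54.3, 61.1 and 45.3 units. Its log2 fold change was 0.41 (SE 0.108, limma adjusted p = 0.00479). In the first set it was 0.57 (adjusted p = 0.0152). The call was lost within the second set (0.26, adjusted p = 0.203) and after thinning all libraries to the reads of the shallowest (0.23, adjusted p = 0.189).

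CNN1, calponin, which binds actin and slows myosin, was near the limit of detection. The controls ranged from 2.10 to 4.99 units, with a median of 2.96, which is 2 to 11 estimated reads per library. The everolimus libraries held 10.4, 12.6, 7.36, 6.85 and 15.1 units, or 25, 36, 24, 13 and 38 reads. A level of 3 reads was worth 0.920 to 3.15 units, so several controls lay near that floor, which covers counting error only. The groups did not overlap, and a two-sided exact permutation test gave p = 0.00433, the smallest that 462 splits allow. Any gene whose groups do not overlap gets this p, which was not adjusted. Everolimus libraries lay wholly above the controls for 20.3% of all tested genes. The difference of the means of log2(value + 1) was 1.46 (SE 0.243). It depended on the constant added, being 1.71 with 0.1 and 0.63 with 10 in place of 1. After thinning it was 1.36 (exact permutation p = 0.00866). CNN2 and CNN3, the calponins of other tissues, rose by a log2 of 0.52 (SE 0.049) and 0.26 (SE 0.036).

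ACTA2, smooth muscle alpha-actin, ranged from 65.8 to 103 units in the controls with a median of 76.9. The everolimus libraries held 65.8, 84.3, 65.8, 65.7 and 96.6 units, so the groups overlapped over most of their range. The log2 fold change was -0.066 (SE 0.130, limma adjusted p = 0.694), and it changed sign without control 3, the library with the highest level (0.013, adjusted p = 0.935), and within the second set (0.052, adjusted p = 0.820). In GENCODE 29, ACTA2 overlaps FAS and STAMBPL1 on the opposite strand, and TAGLN overlaps PCSK7 and VCL overlaps AP3M1 likewise. FAS, a death receptor gene, rose by a log2 of 1.07 (SE 0.054). The use of strand in counting is not given in the sources used here, and whether reads of such partners entered the counts was not tested.

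Of the 6 smooth muscle markers, SMTN (1625 ± 164 units in control libraries) and SYNM (960.3 ± 36.01) were well detected, SYNPO2 averaged 12.5, and the others were lower. MYH11, smooth muscle myosin, averaged 7.26 ± 3.26 units in control libraries and 5.22 ± 1.55 in treated ones, while DES (desmin) and LMOD1 (leiomodin) stayed under 10 units in every library. The 6 markers summed to 2413 to 2866 units in the controls and 2254 to 2546 with everolimus, nearly all from SMTN and SYNM. Of the 3 tested, 0 rose and 1 fell, against 27.8% and 27.4% of all tested genes. The 1 that fell was SYNM (-0.11, SE 0.036, limma adjusted p = 0.0235). That call was lost with the replicate block (adjusted p = 0.0788), within the second set and without any of 4 libraries (control 1; everolimus 1, 2 or 4; adjusted p = 0.0521 to 0.0568). SMTN did not pass (-0.14, SE 0.068, limma adjusted p = 0.0877). It was called lower with the replicate block (-0.15, adjusted p = 0.0157) and within the second set (-0.18, adjusted p = 0.0455). The same held with the library set as a covariate (adjusted p = 0.00609) and under quantile normalization (0.0490). SMTN was also called lower after thinning, with total reads, and without control 3 or everolimus 5. Of 10 markers of endothelium, leukocytes, fibroblasts and skeletal muscle, 7 stayed under 10 units in every library, 2 of them at 0, and the 3 tested did not pass. Their summed level was 453.7 to 544.9 units in control and 425.9 to 502.0 in everolimus libraries. The part of such markers in the results was not tested.

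**Figure D2:**
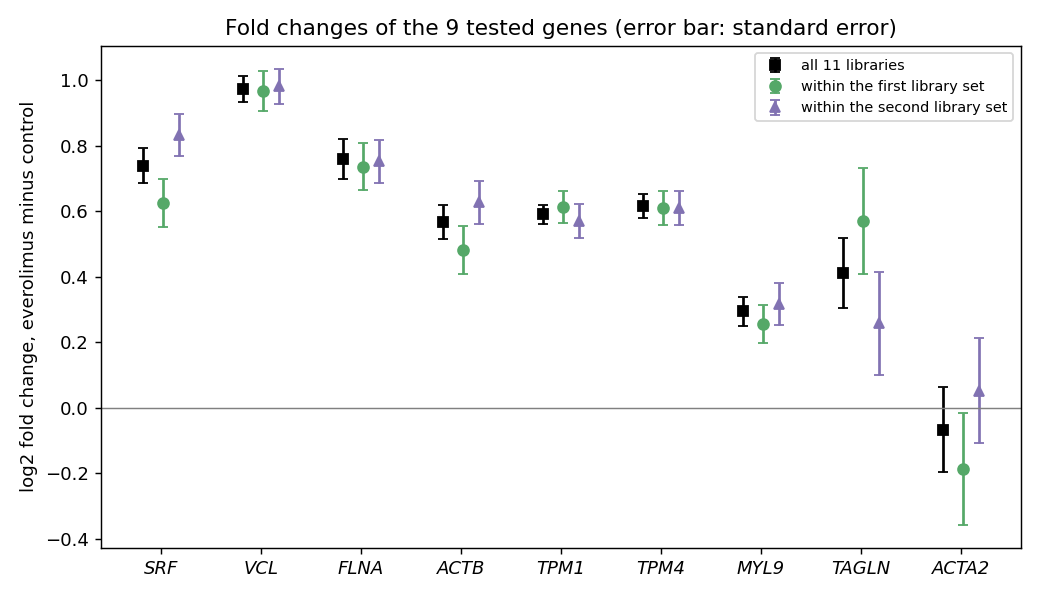
Log2 fold change (everolimus minus control) of the 9 tested genes over all 11 libraries (black squares) and within the first (green circles) and second (purple triangles) library set, with standard errors. VCL is highest at 0.97 and ACTA2 lies at -0.066, and the sets lie close together for VCL, FLNA, TPM1 and TPM4.

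Related genes were next compared by the ratio of their levels within each library, which cancels any scaling of the library. These 7 pairs were chosen after their values were seen, so the ratios are a description, without a test. For 5 pairs the everolimus ratios did not overlap the control ratios, and the share over other gene pairs was not computed. The mean log2 ratio of FLNA to FLNC was higher by 1.03 (SE 0.025) with everolimus. That of TPM1 to TPM2 was higher by 0.77 (SE 0.091) and that of TPM4 to TPM3 by 0.40 (SE 0.026).

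The ratio of ACTB to ACTG1 differed by -0.25 (SE 0.050), with the uncertainty in dividing reads between these genes given above. MYL9 to MYL12A, also near-identical, differed by -0.30 (SE 0.072). The ratio of MYL9 to MYL12B, which rose by 0.13 against 0.29 for MYL9, was not computed. The ratios of TPM1 to TPM4 (-0.025, SE 0.022) and of TAGLN to TAGLN2 (0.17, SE 0.113) overlapped between the groups.

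**Figure D3:**
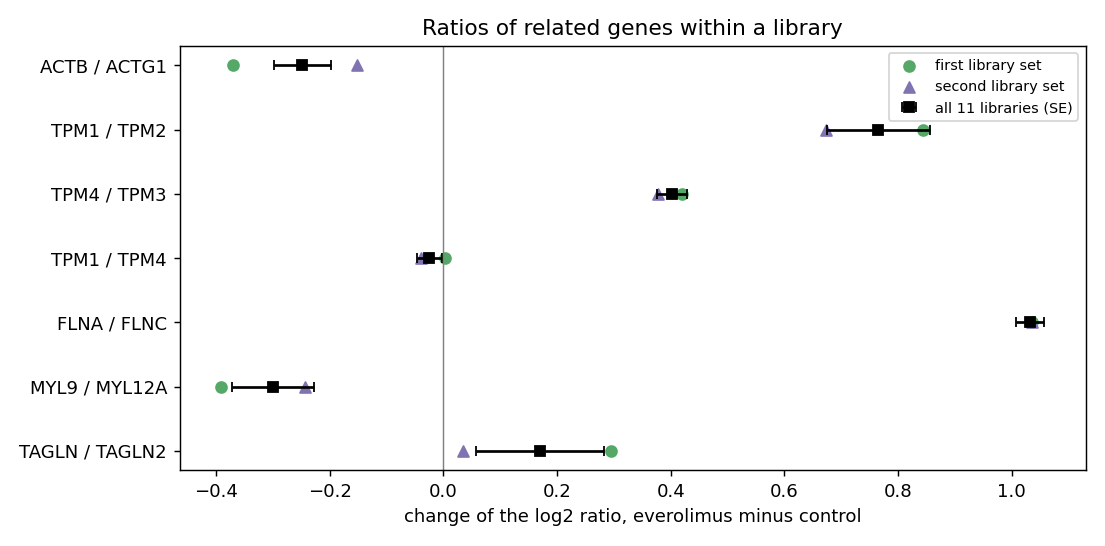
Change of the log2 ratio of 2 related genes (everolimus minus control) over all 11 libraries (black squares with standard errors) and within the library sets (green circles, purple triangles). FLNA to FLNC shows the largest change at 1.03 with the sets on top of each other, and ACTB to ACTG1 and MYL9 to MYL12A lie below 0.

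Other genes of the actin system were read from lists of known function, chosen with earlier results of these data known. The counts from these lists are a description, without a test. Of 17 tested relatives of actin, filamin, tropomyosin, calponin and myosin, 13 rose and 2 fell, against 27.8% and 27.4% of all tested genes. Their median log2 fold change was 0.26 against -0.0081 over all tested genes. CALD1, caldesmon, which binds actin, myosin and tropomyosin, went from 3281 to 3939 units in the controls to 8335 to 9037 with everolimus (log2 1.23, SE 0.044, limma adjusted p = 1.91e-11). ACTN1, alpha-actinin, a filament crosslinker, rose by 0.63 (SE 0.035). FLNC and MYH10, a second non-muscle myosin heavy chain (-0.14, SE 0.036), fell, though MYH10 was not called within the second set (adjusted p = 0.139).

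Most adhesion genes moved in the direction of VCL. Of 22 tested genes of focal adhesions and LIM proteins, 19 rose and 1 fell, against 27.8% and 27.4% of all tested genes. The median log2 fold change of these 22 genes was 0.36. Among the 19, PXN (0.10, limma adjusted p = 0.0167) and FHL2 (0.12, adjusted p = 0.0351) rose little. Neither was called within the second set, under quantile normalization, after thinning, with the replicate block or with total reads. PXN was not called within the first set, and FHL2 was not called in several fits without 1 library. LIMA1, which stabilizes actin bundles, ranged from 858 to 1074 units in the controls and 2461 to 2649 with everolimus (log2 1.44, SE 0.058, limma adjusted p = 7.35e-11). CSRP1, a LIM protein of actin bundles, rose by 0.91 (SE 0.034) and VASP, which helps filaments elongate, by 0.60 (SE 0.032). ZYX, zyxin, a sensor of strained filaments, rose by 0.70 (SE 0.071). TLN2, the less widespread talin, fell by 0.17 on the log2 scale (SE 0.032), whereas TLN1 rose by 0.29 (SE 0.035).

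Of 28 tested genes of filament turnover, 16 rose and 4 fell (median log2 fold change 0.16), against 27.8% and 27.4% of all tested genes. With libraries scaled to total reads 13 rose and 8 fell, where 2637 of all 12650 tested genes rose and 4886 fell. WDR1, which speeds filament disassembly with cofilin, rose from 9516 ± 265 to 14871 ± 296 units (log2 0.64, SE 0.029, limma adjusted p = 1.71e-10). CORO1C, a coronin, rose by 0.68 (SE 0.038) and COTL1, a cofilin relative that binds filaments, by 0.63 (SE 0.041). ARPC5L, a subunit of the Arp2/3 nucleator, fell by 0.35 on the log2 scale (SE 0.048), and the severing protein GSN had -0.37 (SE 0.096) and the profilin PFN2 -0.13 (SE 0.036). GSN was not called within the first set (adjusted p = 0.0636) and PFN2 not within the second (adjusted p = 0.0819).

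**Figure D4:**
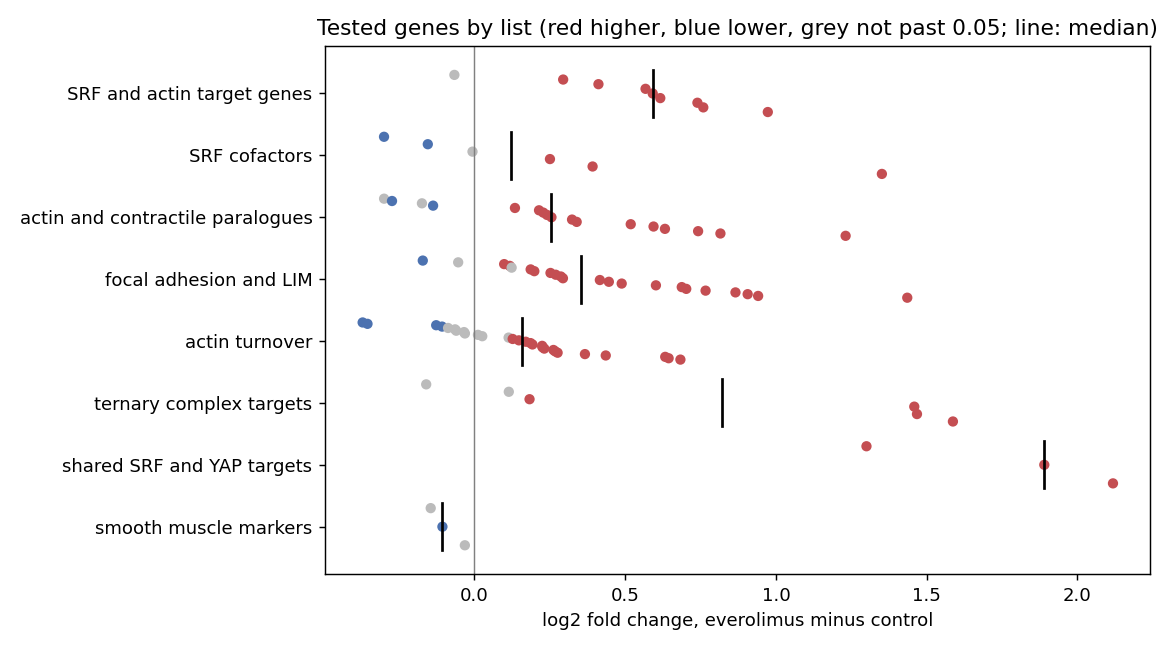
Log2 fold change (everolimus minus control, horizontal axis) of each tested gene by list, with red for genes that rose, blue for genes that fell and grey for genes not past 0.05, and a line at the median. The median is 0.59 for the SRF and actin target genes and 0.36 for focal adhesion and LIM genes.

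Targets that SRF shares with other factors are given for comparison. CYR61 (now CCN1; log2 1.30, SE 0.034), CTGF (now CCN2; 2.12, SE 0.099) and ANKRD1 (1.89, SE 0.077), matrix and nuclear proteins that also answer to YAP, all rose. Of 6 tested targets of the ternary complex 4 rose and 0 fell, against 27.8% and 27.4% of all tested genes. The 4 were JUNB (1.59, SE 0.091), FOSL1 (1.47, SE 0.112), FOSB (1.46, SE 0.224) and MCL1 (0.18, SE 0.041). MCL1 was not called within the second set (adjusted p = 0.0793). FOSB averaged 8.99 ± 3.26 units in control libraries and 25.6 ± 4.32 in treated ones. It reached the filter only through its everolimus libraries, a selection that favours a rise. EGR1, the classic target of the ternary complex, averaged 41.9 ± 4.67 units in control libraries and 38.5 ± 11.9 in treated ones (-0.16, SE 0.172, limma adjusted p = 0.458). IER2 did not pass (0.11, SE 0.085, adjusted p = 0.278), and FOS, EGR2 and EGR3 did not reach the filter.

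The tested genes whose log2 levels over the 11 libraries lay closest to those of SRF, by Pearson's r, were KCTD10, SH3RF2, SNX9, MSN and NRP2, each with an r of 0.992 to 0.994. The r of 827 genes was above 0.95. This likeness is a description, without a test, of levels that all differ between the groups and share the same libraries. NRP2, a receptor for semaphorins and VEGF, had a log2 fold change of 0.75 (SE 0.036), and MSN, moesin, which links actin to the membrane, 0.39 (SE 0.035).

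**Figure D5:**
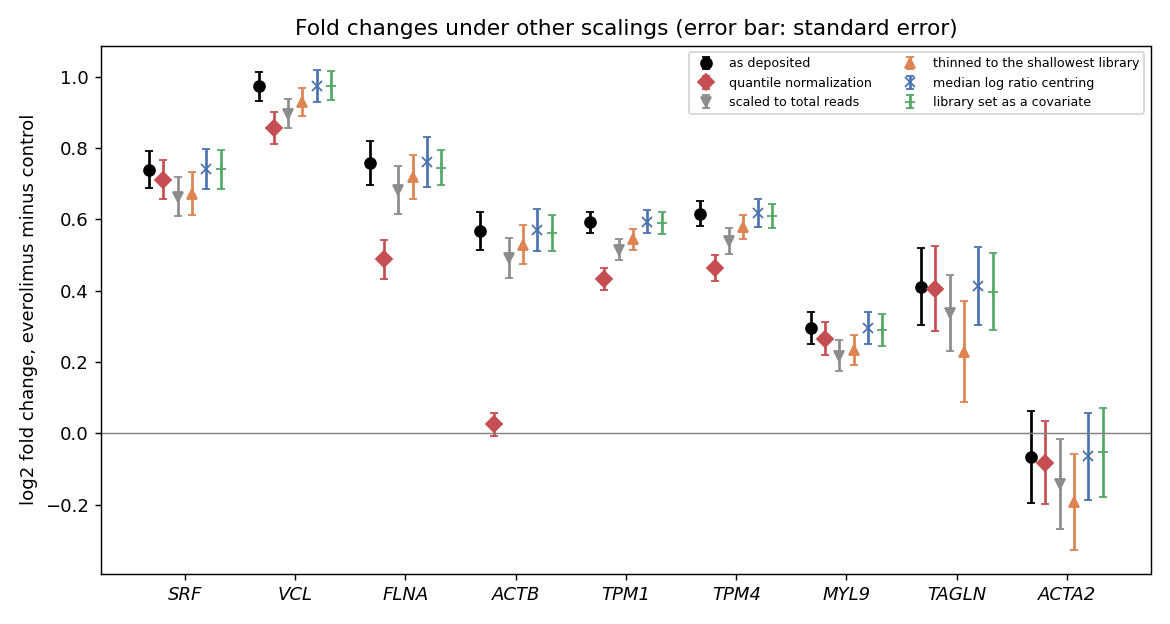
Log2 fold change (everolimus minus control, with standard errors) of the 9 tested genes with the values as deposited and under 5 other scalings or fits. ACTB lies at 0.025 under quantile normalization and FLNA at 0.49, while VCL stays at 0.86 or above.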

How the data were processed

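RNA was measured in 11 samples of 786-0 cells, 6 control and 5 everolimus, grouped and numbered by their titles. Per the labels' protocols, Qiagen RNeasy was used for extraction and the TruSeq Stranded mRNA kit for the libraries. The authors deposited 1 table of a scaled signal per gene and library, and 0 of its columns were left unused. The submitters' processing notes name hg19, Picard 1.64, SAMtools and RSEM without roles. How reads were aligned, annotated, assigned by strand and scaled is not given in the sources used here. In each column the upper quartile (percentile 75) of values above 0 was 999.6 to 1001, and low values lay on multiples of a constant, the value of 1 read. Of the values up to 200 reads, 89.4% to 93.9% were whole within 0.1 reads (89.4% to 90.3% in the first library set, 93.4% to 93.9% in the second), so they were not treated as counts.

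Groups were compared on log2(value + 1) by limma 3.58.1 (R 4.3.3; trend option) over 12668 genes with at least 10 units in at least 5 libraries. Its p-values are two-sided and adjusted by Benjamini-Hochberg over all tested genes (threshold 0.05), and the method was tested on simulated data. Fold changes are on the log2(value + 1) scale and understate changes of low genes. Folds without log are ratios of group means. An exact permutation test of CNN1 was run with SciPy 1.17.1. Promoter windows came from RefSeq (GRCh38.p14), overlapping genes from GENCODE 29, and no coordinates of the authors' build are given.

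The genes and lists were chosen with earlier results of these data known. The rule for named genes took the 10 genes, the SRF cofactors, the targets shared with YAP or the ternary complex, the renal markers, the 3 genes with the smallest p in each direction of every other list, and the 5 genes most like SRF. Others, such as the related genes set beside a member, were chosen after their values were seen. TMSB4X, of the turnover list, was not analysed here. Some items are not reported here.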

Additional observations from a re-analysis of the deposited data

Results flagged for a closer look

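Dixon's criterion was applied to 118 groups of libraries of the named genes, and chance flags about 1 in 20. There were 4 values that stood apart from the rest of their group. ACTA2 in control 3 was at 103.2 units, against 65.8 to 79.6 in the other controls. Everolimus 5 stood apart in 3 genes. JUNB was at 2257 units there against 1714 to 1852 in the other everolimus libraries. ARHGEF2 was at 833.2 units against 773.5 to 777.2, and MKL2 at 681.7 against 745.5 to 768.7. The calls of JUNB and ARHGEF2 did not change without that library, and that of MKL2 was lost.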

How the results depend on the processing

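Of the 10 genes, the 8 that rose kept their calls in all 11 fits that left out 1 library, with log2 fold changes of 0.72 to 0.77 for SRF, 0.959 to 1.001 for VCL, 0.73 to 0.79 for FLNA and 0.37 to 0.47 for TAGLN. Those of ACTA2 ran from -0.16 to 0.013 (without control 3) and its value within the second library set was 0.052, a change of sign in a gene that was never called. Across all alternatives the calls lost were that of ACTB under quantile normalization and that of TAGLN within the second set and after thinning. The number of the 10 genes that rose was 7 to 9 over these fits, with 9 where no filter was applied and CNN1 was tested too, and 7 under the stricter filter, where TAGLN was not tested. Scaling to total reads, added after the data were seen, gave 2637 genes higher and 4886 lower over the whole table, against 3528 and 3469, and moved the median log2 fold change from -0.0081 to -0.084.

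Counts of other lists moved by over 1.5 times as follows. Within the second set 0 SRF cofactors, 1 relative of the actin and contractile genes and 1 marker of other cell types fell, and 2 renal markers rose. Within the first set 2 turnover genes fell. Under quantile normalization 2 focal adhesion genes, 2 smooth muscle markers and 2 renal markers fell, and 2 renal markers rose. With total reads 2 focal adhesion genes, 8 turnover genes and 2 smooth muscle markers fell, and 2 renal markers rose. After thinning or with the library set as a covariate 2 smooth muscle markers fell, and without the filter 1 marker of other cell types rose. Leaving out 1 library gave 1 to 2 SRF cofactors, 0 to 2 smooth muscle markers and 0 to 1 marker of other cell types lower. For these counts the cause was not tested.

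Whether the replicate numbers pair the samples was not settled. The deviations of same-numbered samples correlated at 0.60, 0.42, -0.51, 0.34 and 0.35 for replicates 1 to 5. The controls that correlated best with everolimus 1 to 5 were 1, 3, 6, 5 and 4. Only for replicate 3 did the same-numbered libraries lie in different library sets, so pairing and library set cannot be told apart here. With the replicate block over replicates 1 to 5, SRF had a log2 fold change of 0.72 and all 8 genes kept their calls. Depth limits CNN1, with 2 to 11 reads per control library. The call of TAGLN was lost after thinning, which was drawn at random 1 time. Thinning also moved the median log2 fold change over all tested genes from -0.0081 to -0.047. Whether the depth of TAGLN accounts for its lost call was not tested.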
